A study of Mus musculus with 4 samples.

Results

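The 31 genes described here form the interferon response, the set of antiviral genes that cells switch on when interferon reaches them. Each gene of the list was found by its name among the non-control probes of the array, and all 31 were measured, of 28095 gene names on the array and 17579 genes tested. The rule for membership uses no measured value. A gene with several probes is given by its brightest one. All 31 chosen probes were well above background on all 4 arrays, so none entered through the pool in which it was brighter.

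Whole dorsal skin was taken from 42-day-old male mice, and the labels place it in telogen, when hair follicles rest. In the cKO mice, on a C57BL/6 strain per the labels, Fgf18 was deleted in keratin 5-positive epithelial cells. The WT mice were C57BL/6, and the labels do not say whether they carried a Cre transgene or floxed alleles. Each genotype is 1 pool of polyA RNA from 3 mice. From each pool 200 ng was labelled with Cy3 and read on 2 one-colour arrays, which are technical duplicates. The question was which genes respond to the loss of Fgf18, a secreted fibroblast growth factor. Every SD, SE and p given here measures the spread between duplicate arrays of 1 pool, so the tests compared 2 pools of RNA and not the genotypes, and the spread between mice was not measured.

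Interferons of type I bind the Ifnar1 and Ifnar2 receptor pair, whose kinases Jak1 and Tyk2 activate Stat2. Stat2 and Irf9 are parts of a complex that binds the interferon-stimulated response element (ISRE) in the promoters of many interferon-induced genes. Interferon gamma, of type II, signals through its own receptor to genes that carry the gamma-activated sequence (GAS). In skin, keratinocytes, fibroblasts, vessel cells and leukocytes can all respond.

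The pools differed strongly outside these genes. In all, 996 genes rose and 848 fell in cKO at an adjusted p under 0.05 and at least 1.5-fold, the rule by which a gene is called here. All 14 listed markers of the hair shaft and inner root sheath rose (median log2 change 8.11), and their summed scaled level was 273 and 269 in the cKO duplicates, against 1.42 and 1.44 in the WT duplicates. Of 8 proliferation genes 7 rose (median 1.16). RNA of hair-forming follicle tissue was thus far higher in the cKO pool, although the labels give telogen for both. Levels in whole skin are an average over its cells, and fewer cells of a type cannot be told apart from less RNA per cell. For Fgf18 itself the log2 change was -0.33 (adjusted p = 0.0035); since the deleted part is not named in the labels, this probe may lie outside it and then checks nothing. The log2 changes of Krt5 and Krt14, keratins of the targeted basal epithelium, were -0.09 and 0.31, and those of Gapdh and Actb, commonly used to scale RNA amounts, were -0.50 and -0.16.

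Most interferon response genes were slightly lower in the cKO pool. Of 31 genes, 25 had a log2 change below 0, which was also the sign of 57.1% of all genes tested. The median was -0.23, against -0.05 over all genes. Only Rsad2 fell by the call rule and none rose, where 4.82% of all genes fell and 5.67% rose. At an adjusted p under 0.05 without a fold threshold, 22 were lower and 3 were higher, where 33.7% of all genes were lower and 22.1% were higher. Among the 16650 genes that were, like these 31, above background on all 4 arrays, 35.1% were lower by this rule. The arrays of the 2 pools did not overlap for 23 genes that were lower in cKO (48.1% of all genes) and for 4 that were higher (33.8%). They overlapped for Irf9, Ifit2, Gbp2 and Ifi44. The 3 genes that were higher at an adjusted p under 0.05 were Cxcl9, Cxcl10 and Trim25. The count of 25 genes past the adjusted p was 8 without cKO replicate 1, 15 without cKO replicate 2 and 14 without the filter on dim probes, settings in which the share of all genes past it was 20.0%, 31.3% and 18.4% in place of 55.8%. Without WT replicate 2 the median of the 31 genes was -0.21, against -0.05 over all genes in that fit.

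**Figure D1:**
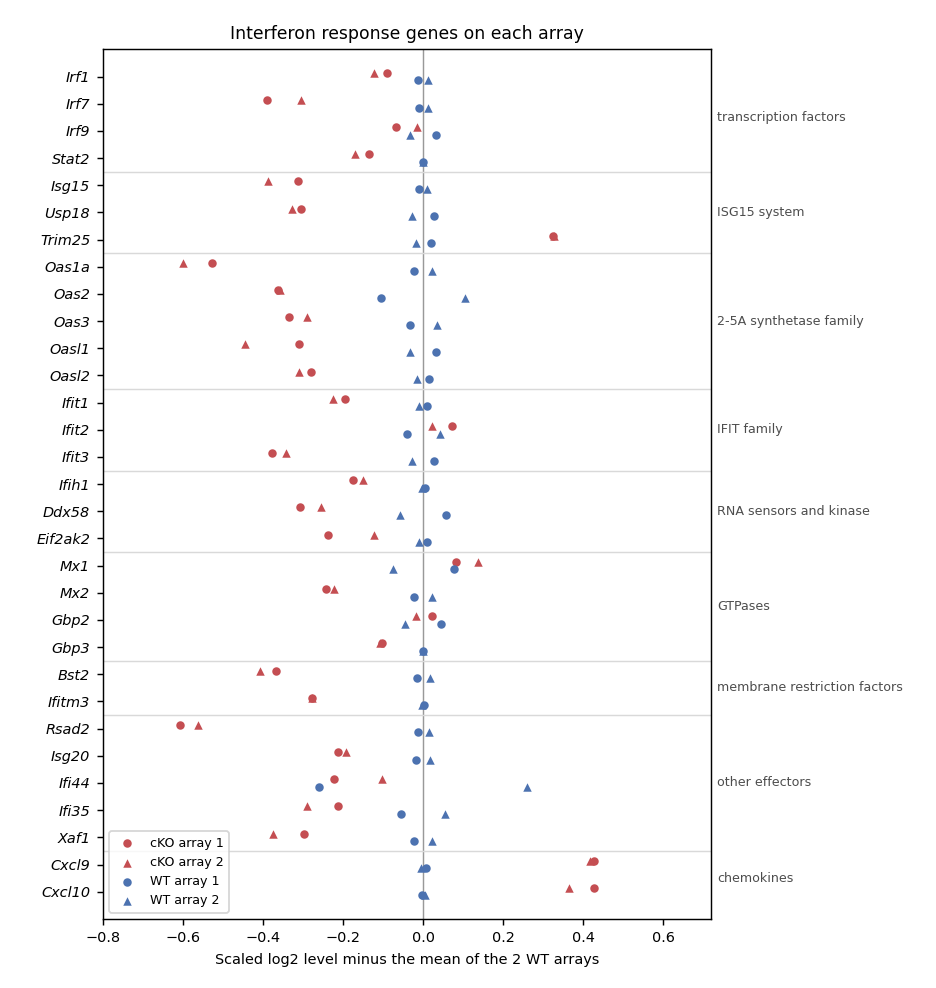
Scaled log2 level of each of the 31 genes on each array, minus the mean of the 2 WT arrays, grouped by the role of the gene. Points are single arrays (circle array 1, triangle array 2). The cKO points lie left of the WT points for 23 genes and right of them for 4, among them Cxcl9, Cxcl10 and Trim25.

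Promoter sequences are shown for 6 of the genes, the first 4 of which were lower in cKO and the last 2 higher. They were taken from RefSeq on GRCm38.p6, whose table held 27 of the 31 genes (not Mx1, Mx2, Oas2 or Usp18). The core of the ISRE, spelled GAAA, any 2 bases and GAAA again, was searched on both strands from 250 bases before to 50 bases after each gene's start, with overlapping matches allowed. It was present in 15 of the 27 genes (55.6%) and in 3.99% of all 27025 genes with such a sequence. The GAS letters TTCNNNGAA, which read the same on both strands, were present in 8 of 27 (29.6%) and in 9.55% of all genes, and in Bst2 and Ifitm3 they overlapped an ISRE core. A match describes the letters only. The sequences below are the 250 bases before the start, 5′ to 3′, and capitals mark the ISRE core on either strand.
Isg15 (chr4:156200819-156201068, minus strand): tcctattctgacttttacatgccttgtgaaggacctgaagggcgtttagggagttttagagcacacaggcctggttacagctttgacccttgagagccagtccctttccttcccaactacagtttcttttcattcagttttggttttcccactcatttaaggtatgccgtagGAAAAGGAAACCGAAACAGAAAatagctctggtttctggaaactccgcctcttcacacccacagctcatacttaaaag
Oas1a (chr5:120907526-120907775, minus strand): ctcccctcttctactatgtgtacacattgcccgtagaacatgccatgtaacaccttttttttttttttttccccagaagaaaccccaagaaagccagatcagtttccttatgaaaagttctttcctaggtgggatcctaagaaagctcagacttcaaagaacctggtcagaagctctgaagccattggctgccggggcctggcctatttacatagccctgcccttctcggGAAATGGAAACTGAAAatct
Bst2 (chr8:71537473-71537722, minus strand): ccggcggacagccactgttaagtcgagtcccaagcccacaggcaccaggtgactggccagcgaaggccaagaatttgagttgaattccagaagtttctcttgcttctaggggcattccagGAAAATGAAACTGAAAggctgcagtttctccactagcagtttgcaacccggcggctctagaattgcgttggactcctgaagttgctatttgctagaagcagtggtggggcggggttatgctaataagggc
Rsad2 (chr12:26456453-26456702, minus strand): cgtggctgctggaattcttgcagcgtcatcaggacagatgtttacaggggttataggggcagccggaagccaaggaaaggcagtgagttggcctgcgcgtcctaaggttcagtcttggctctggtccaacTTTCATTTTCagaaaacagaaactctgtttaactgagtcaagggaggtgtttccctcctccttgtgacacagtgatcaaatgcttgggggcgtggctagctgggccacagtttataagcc
Cxcl10 (chr5:92348890-92349139, minus strand): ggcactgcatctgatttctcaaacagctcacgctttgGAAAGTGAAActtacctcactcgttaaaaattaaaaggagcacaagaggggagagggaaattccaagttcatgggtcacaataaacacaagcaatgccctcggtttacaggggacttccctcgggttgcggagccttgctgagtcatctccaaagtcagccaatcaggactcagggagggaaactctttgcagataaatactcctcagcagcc
Trim25 (chr11:88999153-88999402, plus strand): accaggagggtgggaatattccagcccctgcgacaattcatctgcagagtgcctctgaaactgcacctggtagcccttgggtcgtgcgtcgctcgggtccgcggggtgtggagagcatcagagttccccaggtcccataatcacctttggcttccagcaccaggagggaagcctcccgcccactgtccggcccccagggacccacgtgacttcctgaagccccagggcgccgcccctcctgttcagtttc

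Isg15 held 3 overlapping ISRE cores between positions -78 and -57 from its start, Oas1a held 2 between -20 and -5, and Bst2 held 2 between -130 and -115. Rsad2 and Cxcl10 held 1 each, at -120 to -111 and at -213 to -204. Trim25 held none in this window. Of the 15 genes with a match, 13 had a log2 change below 0 and 2 above it, Cxcl10 and Gbp2, with a median of -0.28. Of the 12 without one, 9 were below 0 and 3 above, with a median of -0.18. No test was made of this difference.

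Of the 4 transcription factors, Irf7, Stat2 and Irf1 were lower at an adjusted p under 0.05 and Irf9 was not. Levels are given below as log2 of the spot intensity after subtracting the 75th percentile of each array, so that 0 is the 75th percentile. They are compared for one gene between arrays and not between genes. The exception is the sums over cell markers, in which genes with the brightest probes weigh most. Irf7, the factor that amplifies type I interferon production, had levels of -1.13 and -1.05 in cKO and -0.76 and -0.73 in WT. Both cKO arrays lay below both WT arrays, with a log2 change of -0.35 (SE 0.040, adjusted p = 0.0076). Stat2, which carries the activating surface of the ISRE-binding complex, had 0.50 and 0.46 in cKO and 0.63 and 0.63 in WT, a log2 change of -0.15 (adjusted p = 0.017). Irf9, the DNA-binding part of that complex, had 1.04 and 1.09 in cKO and 1.14 and 1.07 in WT. Its arrays overlapped (log2 -0.04, 95% interval -0.16 to 0.07, adjusted p = 0.42). Irf1, a factor of the interferon gamma response, had 2.98 and 2.95 in cKO and 3.05 and 3.08 in WT (log2 -0.11, adjusted p = 0.043). A second, dimmer probe of Irf1 gave 0.11 and one of Irf9 gave 0.28, and with the mean of probes the 2 genes had 0.0030 and 0.12, so that the direction of these small differences differed between probes.

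In the ISG15 system the modifier and its protease were lower while a ligase was higher. Isg15, a ubiquitin-like protein that is attached to other proteins, had levels of -0.17 and -0.24 in cKO and 0.14 and 0.16 in WT, a log2 change of -0.35 (SE 0.037, adjusted p = 0.0064). Usp18, which removes Isg15 and blocks the type I receptor, had 0.71 and 0.68 in cKO and 1.04 and 0.99 in WT (log2 -0.32, adjusted p = 0.0057). Trim25, a ligase for ubiquitin and Isg15 that activates the RNA sensor encoded by Ddx58, had 1.90 and 1.90 in cKO and 1.60 and 1.56 in WT. The cKO arrays of Trim25 lay above the WT arrays, the reverse of Isg15 and Usp18, with a log2 change of 0.33 (SE 0.026, adjusted p = 0.0039). Its second probe gave 0.05, and the mean of both probes gave 0.19. Without cKO replicate 1 its adjusted p was 0.052.

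The oligoadenylate synthetase family was lower as a whole. Its enzymes make the short adenylate chains that activate RNase L against viral RNA, and Oasl1 and Oasl2 are relatives of the family. All 5 members were lower at an adjusted p under 0.05 and their arrays did not overlap, with log2 changes between -0.56 and -0.29. Of all genes tested, 33.7% were lower at that adjusted p and 48.1% were lower without overlap. Oas1a had levels of -0.10 and -0.18 in cKO and 0.40 and 0.45 in WT. Its change of -0.56 (SE 0.040, adjusted p = 0.0031) amounts to 1.48-fold, just short of the call. Without cKO replicate 1 (log2 -0.60) or without WT replicate 1 (-0.59) Oas1a was called. Oas2 had 0.97 and 0.97 in cKO, against 1.22 and 1.43 in WT, whose duplicates stood 0.21 apart (log2 -0.36, adjusted p = 0.036). Oas3 was dim, with -4.53 and -4.49 in cKO and -4.23 and -4.16 in WT (log2 -0.31, adjusted p = 0.0085). With normexp and quantile normalization its change was -0.15 and missed the threshold (adjusted p = 0.075). Second probes of Oas2 and Oas3, each above background on only 1 array, gave 0.02 and -0.29. The values of Oasl1 and Oasl2 were -0.38 (adjusted p = 0.016) and -0.29 (adjusted p = 0.0049). The probes of these 5 genes lie on chromosome 5 on mm9, that of Oas1a from 121348348 to 121348407. The family has near-identical copies, so single members are uncertain where a probe can bind several.

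Rsad2 was the one gene of the 31 that fell. It encodes viperin, an enzyme that makes a chain-terminating nucleotide against viral polymerases. Its levels were -1.24 and -1.19 in cKO and -0.64 and -0.61 in WT, and the gap of 0.55 between the nearest arrays of the pools exceeded the larger gap of 0.046 between duplicates. The log2 change was -0.59 (SE 0.030, adjusted p = 0.0020), only just past the 1.5-fold threshold. On mm9 the probe covers bases 27127859 to 27127918 of chromosome 12. The other 2 probes of Rsad2 gave -1.34 and -0.73, and neither was above background on both arrays of a pool. Over the alternatives the change ran from -0.61 to -0.54 and the adjusted p from 4.24e-05 to 0.040. The call was lost for want of fold with normexp and quantile normalization (-0.54), with scaling on probes above background on all arrays (-0.55), without cKO replicate 1 (-0.56) and without WT replicate 2 (-0.57).

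**Figure D2:**
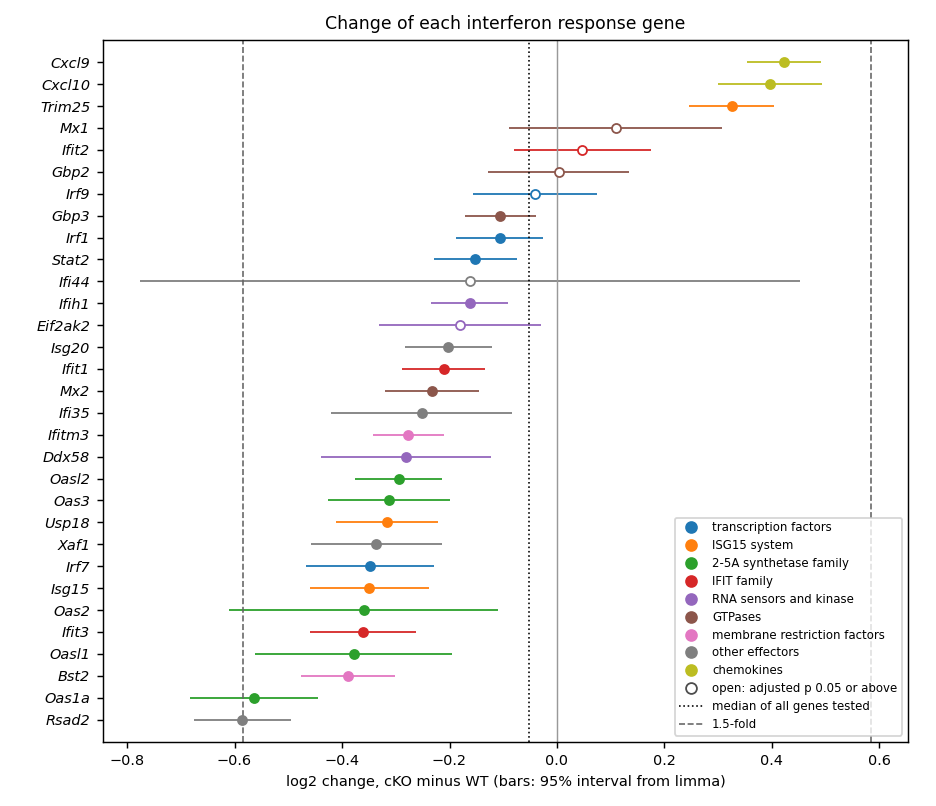
Log2 change of each gene, cKO minus WT, with its 95% interval from limma over duplicate arrays, ordered by size and coloured by role. Rsad2 at -0.59 and Oas1a at -0.56 lie at the dashed 1.5-fold line, most genes lie between -0.40 and -0.10, and Cxcl9, Cxcl10 and Trim25 lie between 0.32 and 0.43.

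The other effectors were lower by smaller amounts. Bst2, or tetherin, which holds budding viruses at the cell surface, had levels of 2.09 and 2.05 in cKO and 2.44 and 2.47 in WT (log2 -0.39, SE 0.029, adjusted p = 0.0035). Ifitm3, a membrane protein that blocks viral fusion, had 3.82 on both cKO arrays, against 4.10 and 4.09 in WT (log2 -0.28, adjusted p = 0.0038), and -0.13 with normexp and quantile normalization (adjusted p = 0.067). Both sets of arrays were clearly apart in each gene. Xaf1, a proapoptotic factor, Ifi35, which binds the related factor Nmi, and the exonuclease Isg20 had -0.34, -0.25 and -0.20 (adjusted p = 0.0085, 0.033 and 0.010). Ifi44 could not be placed, because its WT arrays differed by 0.52 from each other, with levels of -2.24 and -2.12 in cKO and -2.28 and -1.76 in WT. Its log2 change was -0.16 (95% interval -0.78 to 0.45, adjusted p = 0.54).

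Among the IFIT proteins, which bind foreign RNA, Ifit3 and Ifit1 were lower and Ifit2 depended on the probe. Ifit3 had levels of 0.32 and 0.35 in cKO and 0.72 and 0.67 in WT (log2 -0.36, adjusted p = 0.0048), and Ifit1 had -2.25 and -2.28 in cKO and -2.04 and -2.07 in WT (log2 -0.21, adjusted p = 0.0087). Neither overlapped. The brighter probe of Ifit2 had -2.73 and -2.78 in cKO and -2.84 and -2.76 in WT, with arrays that overlapped (log2 0.05, adjusted p = 0.41). The dimmer probe had -4.79 and -4.67 in cKO and -4.01 and -3.98 in WT, a log2 change of -0.73. The probes lie on chromosome 19 on mm9, the brighter from 34650244 to 34650303 and the dimmer from 34648307 to 34648366, and the mean of both gave -0.34. Of the 7 genes with several probes above background on all arrays, 4 had probes of opposite sign, namely Ifit2, Irf1, Irf9 and Ddx58.

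The RNA sensors Ifih1 (MDA5) and Ddx58 (RIG-I) were lower, with log2 changes of -0.16 (adjusted p = 0.013) and -0.28 (adjusted p = 0.022). Dimmer probes gave -0.69 for Ifih1, and -0.37 and 0.03 for Ddx58. Eif2ak2, the RNA-activated kinase PKR that stops translation, had levels of -0.42 and -0.30 in cKO and -0.17 and -0.19 in WT (log2 -0.18, adjusted p = 0.054), missing the threshold although its arrays did not overlap. Of the GTPases, Mx2, an antiviral dynamin-like protein, had -0.94 and -0.92 in cKO and -0.72 and -0.67 in WT (log2 -0.23, adjusted p = 0.0092). Gbp3 and Gbp2, guanylate-binding proteins that act against intracellular microbes, had -0.11 (adjusted p = 0.028) and 0.0030 (95% interval -0.13 to 0.13, adjusted p = 0.96). Mx1 was dim, with -4.23 and -4.18 in cKO and -4.24 and -4.39 in WT (log2 0.11, adjusted p = 0.24), and the gap between the nearest arrays of the pools was 0.0045. The Mx1 gene of C57BL/6 and most other laboratory strains is known to be defective.

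The chemokines stood on the other side. Cxcl9 and Cxcl10 draw activated T cells through the receptor Cxcr3, and Cxcl9 in particular is known as an interferon gamma target. Cxcl9 had levels of -0.38 and -0.39 in cKO and -0.80 and -0.81 in WT, a log2 change of 0.42 (SE 0.023, adjusted p = 0.0022), or 1.34-fold higher. Cxcl10 had 0.53 and 0.47 in cKO and 0.10 and 0.11 in WT, a log2 change of 0.40 (SE 0.032, adjusted p = 0.0040), or 1.32-fold higher. All arrays of the cKO pool lay above those of the WT pool for both genes, and neither change reached 1.5-fold. Over the alternatives Cxcl9 ran from 0.37 to 0.46 and Cxcl10 from 0.37 to 0.43. On mm9 their probes start at 92752191 and 92775781 of chromosome 5. The third ligand of that receptor, Cxcl11, was not well above background on both arrays of either pool. Ifng had levels of -3.97 and -3.66 in cKO and -3.80 and -4.19 in WT (log2 0.18, adjusted p = 0.47).

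The rest of the pathway was read from lists chosen, like the 31 genes, with earlier results of these data known. Of 18 listed interferon ligands 12 were on the array and 4 were tested, and none of the 4 was called or reached an unadjusted p of 0.05. The other 8, Ifnb1 and Ifnk among them, were not well above background on both arrays of either pool. Ifna9, one of a family of near-identical alpha interferons, had a log2 change of -0.0026. None of 16 receptor and JAK-STAT genes was called (median -0.06), while 6 (37.5%) were lower and 3 (18.8%) higher at an adjusted p under 0.05. Those shares are near the 33.7% and 22.1% of all genes tested. Ifngr1, a chain of the gamma receptor, had -0.17 (adjusted p = 0.017) and the kinase Jak1 had -0.04 (adjusted p = 0.40). None of 16 tested nucleic acid sensors and adaptors was called (median -0.07, 4 lower and 3 higher past the adjusted p), with -0.03 for the factor Irf3 and -0.31 for Tmem173, which encodes the DNA-response adaptor STING (adjusted p = 0.0068). None of 6 other IRF factors and IRF2-binding proteins was called (median -0.03). Of these, 1 was lower (16.7%) and 2 were higher (33.3%) past the adjusted p. Irf8, a factor of myeloid cells, had -0.06 (adjusted p = 0.17).

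Other antiviral genes had values like those of the 31. Of 36 tested genes induced by type I interferon, 31 had a log2 change below 0 (86.1%, against 57.1% of all genes), with a median of -0.24. At an adjusted p under 0.05, 25 were lower (69.4%, against 33.7% of all genes) and 3 higher (8.33%, against 22.1%). By the call rule 3 fell and none rose, where 4.82% of all genes fell and 5.67% rose. Slfn4, a schlafen gene of myeloid cells, had levels of -4.37 and -4.56 in cKO and -3.31 and -3.31 in WT and fell 2.23-fold (adjusted p = 0.0029; log2 -0.59 with normexp and quantile normalization). Ifi27l2a, a small interferon-induced membrane protein, had 5.97 and 5.96 in cKO and 6.87 and 6.94 in WT and fell 1.92-fold (adjusted p = 0.0013). Ms4a4c, a membrane protein of leukocytes, had -1.54 and -1.47 in cKO and -0.75 and -0.75 in WT and fell 1.69-fold (adjusted p = 0.0017). In the list of type II GTPases and antigen processing genes the median was -0.03, close to that of all genes. Of its 24 tested genes 14 were below 0 (58.3%), and 10 were lower (41.7%) and 3 higher (12.5%) past the adjusted p. By the call rule 2 of the 24 fell and none rose, beside 4.82% and 5.67% of all genes. The 2 were the immunity-related GTPase Irgm2 (1.67-fold, adjusted p = 0.0016) and Fcgr1, the high-affinity IgG receptor of macrophages (1.57-fold, adjusted p = 0.0018). The difference between the 2 lists was not tested.

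**Figure D3:**
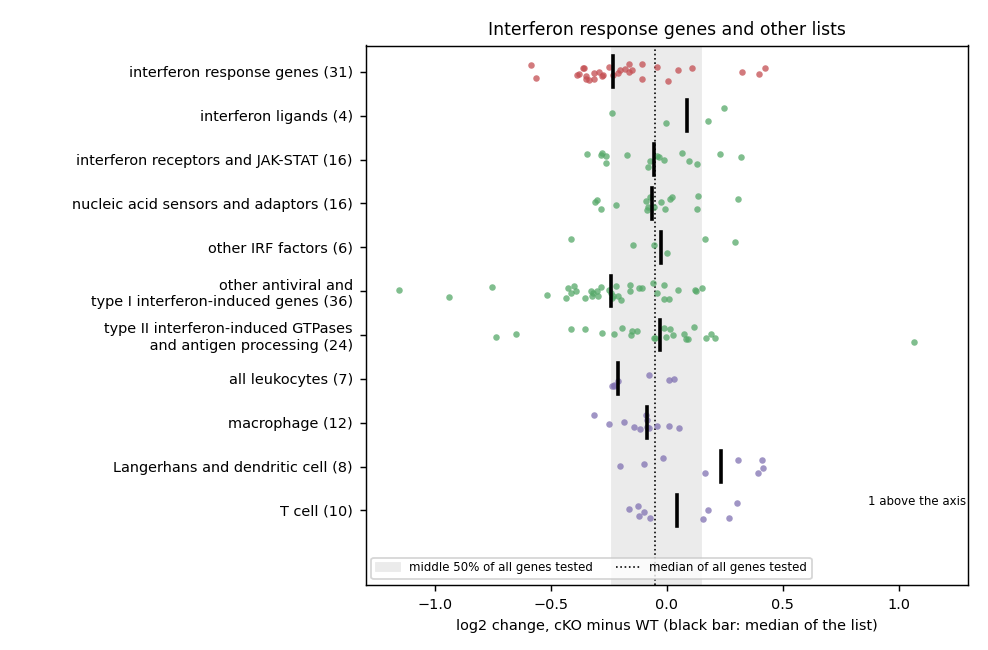
Log2 change, cKO minus WT, of each tested gene in the 31 interferon response genes, in other interferon pathway lists and in leukocyte marker lists, with the number tested in brackets. Black bars are list medians, the dotted line is the median of all genes (-0.05) and the grey band holds the middle 50% of all genes. The medians of the 31 genes (-0.23) and of the other type I genes (-0.24) lie at the left edge of the band. Gene Cd4 lies beyond the right end of the axis.

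Markers of leukocytes went both ways between the pools. The summed level of 7 general leukocyte genes was 21.7 on both cKO arrays, against 24.2 and 24.8 on the WT arrays, with none called and a median log2 change of -0.21. For 12 macrophage genes the sums were 174 and 171 in cKO and 187 and 187 in WT (median -0.09, none called). The sums of 5 mast cell genes were 23.6 and 23.5 in cKO and 34.6 and 33.3 in WT (median -0.47), and Cma1, a mast cell chymase, fell. For Langerhans and dendritic cell genes they were higher, at 48.8 and 45.7 in cKO and 41.6 and 42.3 in WT over 8 of 9 genes (median 0.23, none called). Single genes of that list went both ways, 5 above 0 and 3 below, with 2 higher and 2 lower at an adjusted p under 0.05. The T cell sums were 25.5 and 25.8 in cKO and 26.6 and 27.2 in WT over 10 genes (median 0.04). Thy1, which other skin cells also express, made up 90.4% of them, and without it the other 9 genes, Cd4 included, summed to 2.68 and 2.73 in cKO and 2.29 and 2.44 in WT. The higher cKO sums without Thy1 rest on Cd4, whose levels were -1.32 and -1.31 in cKO and -5.32 and -5.19 in WT. Of the 10 T cell genes 3 were lower (30.0%, against 33.7% of all genes) and 3 higher (30.0%, against 22.1%) at an adjusted p under 0.05. Cd74 made up 88.7% of the Langerhans and dendritic cell sums, which were also higher in cKO without it, at 5.57 and 5.33 in cKO and 4.68 and 4.63 in WT. The sums without 1 gene were chosen after the levels were seen. The one T cell gene called was Cd4, which in WT was not well above background (neither array) and was at least 14-fold higher in cKO (adjusted p = 0.00031). In the NK cell list 4 of 6 genes were tested, with sums of 0.973 and 1.03 in cKO and 1.18 and 1.14 in WT (median -0.50). Klrb1c, a receptor of these cells, fell, and the defining receptor Ncr1 was not above background on both arrays of either pool. Neither B cells (2 of 5 genes tested, sums of 0.410 and 0.406 in cKO and 0.385 and 0.371 in WT) nor neutrophils (2 of 7, sums of 0.40 and 0.39 in cKO and 0.28 and 0.30 in WT) had most of their markers above background, and of these only Mpo, a granule enzyme, rose. Without Mpo the other neutrophil gene tested had 0.109 and 0.107 in cKO and 0.113 and 0.122 in WT. In the plasmacytoid dendritic cell list the defining receptor Siglech was likewise below that limit, and of the 5 tested genes Ccr9 and Cox6a2 fell, the second of which is also a muscle gene (median -0.14, sums of 103 and 104 in cKO and 134 and 138 in WT). In the same list Klk1 and Pacsin1 were higher, with log2 changes of 0.47 (adjusted p = 0.0022) and 0.93 (adjusted p = 0.060), and Ly6d had -0.14 (adjusted p = 0.037). Ly6d made up 55.5% of the sums of this list. The other 4 genes summed to 40.0 and 40.1 in cKO and 65.5 and 67.0 in WT, nearly all of it from Cox6a2. These sums therefore follow 2 genes and say little about plasmacytoid dendritic cells. The calls of Cma1, Klrb1c, Mpo, Ccr9 and Cox6a2 were lost with normexp and quantile normalization. That of Cox6a2 was also lost with quantile normalization alone (log2 -0.54), that of Klrb1c without cKO replicate 1 or 2 (adjusted p = 0.062 for each), and that of Ccr9 with all dim probes kept (adjusted p = 0.063) and without WT replicate 1 (0.074) or 2 (0.062). Endothelial, fibroblast and skeletal muscle lists had medians of -0.30, -0.21 and -0.51, with sums of 16.0 and 16.3 in cKO and 19.8 and 19.8 in WT for endothelium, 770 and 771 in cKO and 835 and 915 in WT for fibroblasts, and 783 and 781 in cKO and 1089 and 1141 in WT for muscle. The adipocyte list had a median of -0.26, with sums of 394 and 403 in cKO and 400 and 419 in WT. Without their brightest gene the adipocyte sums were higher in cKO, at 176 and 175 against 168 and 166 in WT. Basal keratinocyte genes had a median of -0.08, with sums of 519 and 512 in cKO and 517 and 546 in WT. The part of these cells, and of the hair-forming tissue of the cKO pool, in the lower level of the interferon response genes was not tested.

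The direction of most genes was the same in every setting tried. Over the main setting and 16 alternatives, 22 genes were below 0 in every one and Cxcl9, Cxcl10 and Trim25 were above 0 in every one. The other 6, Gbp2, Ifi44, Ifit2, Irf1, Irf9 and Mx1, took both signs. Most of the alternatives could hardly change a sign. The replicate block and limma's trend and robust options alter the errors and not the log2 change. With these, with either change of the filter on dim probes, with outlier spots kept and with RefSeq names, the median of the interferon response genes stayed at -0.23. Median scaling, scaling on probes above background on all arrays and the authors' values shift all genes by nearly the same small amount. Only a gene near 0 could turn with them. With the same probe, leaving out 1 array cannot turn a gene whose pools do not overlap (23 lower and 4 higher). The same sign in all those settings was largely fixed in advance and adds little. A sign was more open to change with quantile normalization, with or without normexp, and with the mean of probes.

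**Figure D4:**
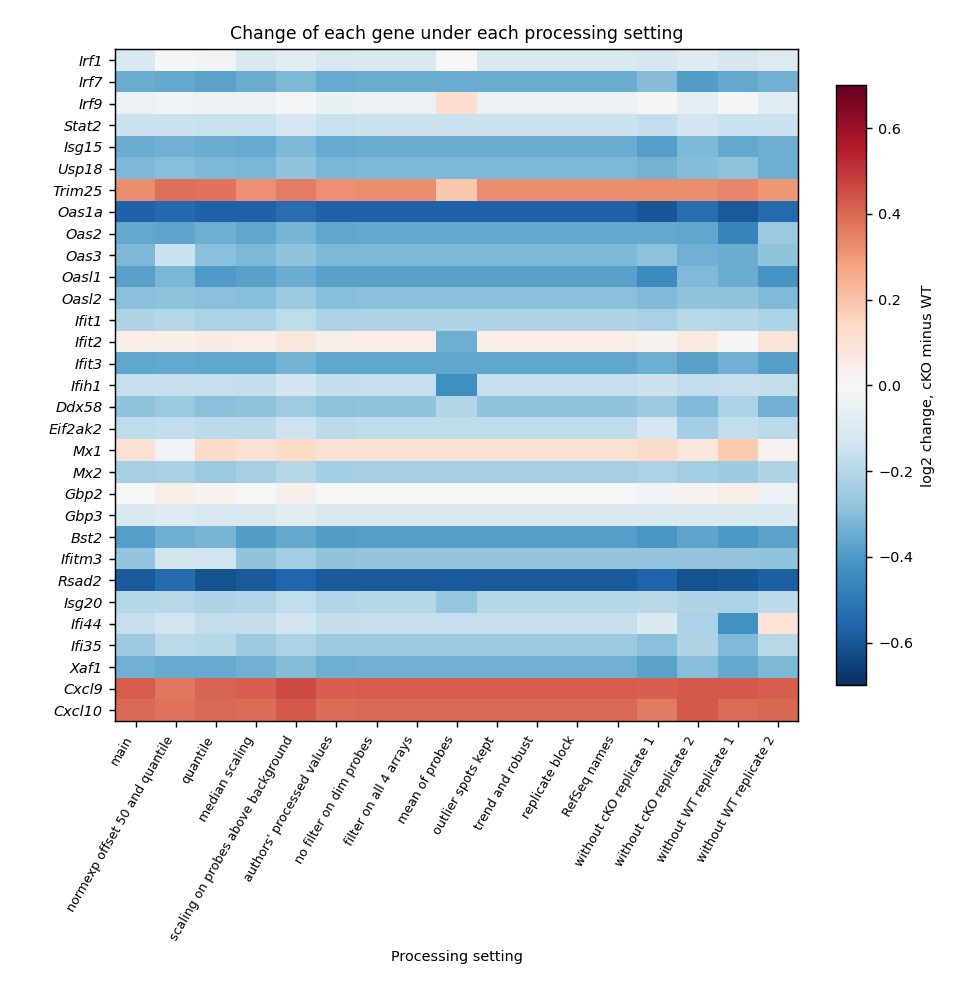
Log2 change, cKO minus WT, of each of the 31 genes (rows, ordered by role) under each processing setting (columns), as colour from blue (lower in cKO) to red (higher in cKO). Rows of Rsad2 and Oas1a are the darkest blue throughout, rows of Cxcl9, Cxcl10 and Trim25 are red throughout, and the rows of Ifit2, Irf9 and Irf1 turn with the mean of probes.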

How the data were processed

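Per the file headers, the arrays were read with Agilent Feature Extraction 10.7.3.1, with spatial and multiplicative detrending within each array, and the deposited processed spot intensity was the starting value. The authors' deposited values, a linear ratio to 1 number per array (medians 0.114 and 0.112 for cKO, 0.112 and 0.113 for WT), served as an alternative; their scale was found from the intensities, they were not centred per gene, and what computed it was not stated in the labels or files used. The 4 arrays share 1 slide and 1 scan time, so neither could be fitted as a batch.

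Control spots were left out and outlier spots (74 to 143 per array) were set to missing. The log2 intensity minus the 75th percentile over the 43379 non-control spots of each array was averaged over the spots of a probe. That percentile was 1403 and 1453 for cKO and 1271 and 1316 for WT, and 62.1% to 69.1% of spots were well above background. No spot was saturated. Duplicate arrays correlated at r = 0.997 (cKO) and 0.996 (WT) across genes. The number of arrays limits the precision.

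A probe was kept if 1 pool or both had it well above background on each duplicate, and the brightest kept probe stood for each file gene name (17579 genes). limma 3.58.1 in R 4.3.3 (lmFit, eBayes, two-sided) compared cKO with WT without covariates, with Benjamini-Hochberg adjustment over all genes tested. For Cd4, dim in WT, "at least" sets the cKO mean against the higher of the probe's signal and the lowest signal well above background per array. Coordinates of probes are on mm9, as in the files; no gene models of that build were used, so exon or UTR is not stated. Promoters came from RefSeq (GRCm38.p6). Tables and plots used Python 3.11.15, pandas 2.3.3, matplotlib 3.10.9 and data.table (1.17.8). The fit was tested on simulated data. The genes and lists were chosen with earlier results of these data known. The genes named are the 31, Fgf18, Krt5, Krt14, Actb, Gapdh, up to 4 called genes of each pathway list (or the 2 with the brightest probes, which sets no order between genes), and called leukocyte markers; the rule also covers the brightest marker of each cell type list, not printed, and 1 gene that the rule names is not reported here. Ly6d, Klk1, Pacsin1, Thy1, Cd74, Ifnb1, Ifnk, Cxcl11, Siglech and Ncr1 were named after their values were seen.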

Additional observations from a re-analysis of the deposited data

How the results depend on the processing

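Of the 16 alternatives, normexp and quantile normalization called 1200 genes in all (481 lower) in place of 1844 (848 lower), moved the median of the 31 genes to -0.19 and called 0 of them (24 at an unadjusted p under 0.05, 20 at an adjusted one). With normexp and quantile normalization 48.9% of all genes passed the adjusted p, in place of 55.8%. Scaling on probes above background on all arrays also called 0 of the 31 (24 at an unadjusted p under 0.05). The mean of probes moved the median to -0.27. Without the filter on dim probes, where 28095 genes were tested, 14 of the 31 passed the adjusted p, 11 of them lower. In that setting 18.4% of all genes passed it. When single arrays were left out, in fits that assume the lone array varies like the other pool, 0 to 2 of the 31 were called, 8 to 19 passed the adjusted p, 6 to 16 of them lower and 2 or 3 higher, and the median ran from -0.26 to -0.21. The sign turned for Mx1 (-0.029), Krt5 (0.0018), Ifna9 (0.027), Jak1 (0.061) and Irf3 (0.085) with normexp and quantile, for Ifna9 (0.021), Jak1 (0.055) and Irf3 (0.11) with quantile, for Ifna9 (0.030) and Irf3 (0.0062) with scaling on probes above background, for Gbp2 (-0.00037) with the authors' values, and for Irf1 (0.0030), Irf9 (0.12), Ifit2 (-0.34) and Irf8 (0.0068) with the mean of probes. When single arrays were left out it also turned for Gbp2 (-0.043 to 0.049), Ifi44 (-0.42 to 0.10), Ifng (-0.013 to 0.37) and Ifna9 (-0.045 to 0.039). The cause was not tested. The replicate numbers showed no pairing of the arrays (correlation of deviations -0.04). With 2 arrays per pool the deviations of 1 number mirror those of the other, so this is 1 check. With the replicate block 1815 genes were called, 19 of the 31 passed the adjusted p, 16 of them lower, and Rsad2 was called. Of all genes, 45.4% passed the adjusted p with the block. Signal near background limits the values of Oas3, Mx1, Ifng, Ifna9, Slfn4 and the dimmer probes.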
